A study of Mus musculus with 6 samples.

Results

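The kinesin superfamily was followed in tracheal mesenchyme of the mouse, with 3 samples from uninjured mice and 3 from mice 48 h post injury (hpi). A gene was counted as a kinesin if its symbol on the array was Kif followed by a digit and if it had a probe set assigned to that symbol only. This gave 37 kinesin genes among 18193 genes measured, each represented by the brightest of its probe sets (by the mean of the 6 samples). By the known work of their proteins they were sorted into 11 mitotic kinesins, 15 transport kinesins, 5 kinesins of cilia and centrioles and 6 others. The sorting was made with earlier results of these data known.

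Kinesins are motor proteins that use ATP to walk along microtubules or to take microtubule ends apart. Some build the mitotic spindle, move chromosomes and help to part the daughter cells, and the genes of many of these are expressed mainly late in the cell cycle. Others carry vesicles, mitochondria and protein complexes through the cytoplasm and the cilium of cells that do not divide. The comparison asked whether these classes changed together in the connective tissue under an airway epithelium that was being repaired.

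Both groups were adult male C57Bl/6 mice, and the labels name no transgene or targeted allele. The injured mice had breathed 500 ppm SO2 for 4 h, a gas that strips luminal cells from the airway epithelium, and the controls were labelled normal. Each sample was a pool of the tracheas of 4 mice, from which the epithelium had been peeled after 23 min in dispase, so that all other tracheal cells were measured together. The p-values therefore measure the spread between pools, and fewer cells of a type and less RNA per cell cannot be told apart in such samples. Values are RMA (robust multi-array average) expression on the log2 scale, where a difference of 1 is a 2-fold change. The level of a probe set does not give the expression of a gene relative to another gene, so genes were compared by their changes. Brightness served to choose probe sets, to mark dim ones and to choose some of the genes named. It also served to see whether markers of a cell type gave a signal.

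Within a group, pairs of arrays had correlations of 0.987 to 0.994 across probe sets. Markers of fibroblasts were bright, with a mean of 12.27 to 12.49 in the controls and 12.30 to 12.49 at 48 hpi over 8 genes, and so were those of smooth muscle (10.14 to 11.36 and 10.78 to 11.30) and cartilage (11.48 to 11.66 and 10.86 to 11.22). The secretory cell genes Scgb1a1 and Scgb3a2 were also bright, at 12.50 to 13.46 and 12.00 to 12.90 in the controls, so epithelial RNA was present although the epithelium had been peeled off.

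At 48 hpi, 10 of the 37 kinesin genes rose and 1 fell at an adjusted p below 0.05 (limma). Of all genes, 4.97% rose and 1.24% fell, and a single fall among the kinesins is too few to be read against that share. The rises were found in 9 of the 11 mitotic kinesins and in Kif26b, and in none of the 20 transport and ciliary kinesins, whereas the 1 fall was that of Kif21a. The median log2 fold change was 1.95 over the mitotic kinesins, -0.04 over the transport kinesins and -0.14 over the kinesins of cilia and centrioles, against -0.01 over all genes. In the plot of levels by sample, the orange points of 9 of the 11 mitotic kinesins lie above the blue ones. The groups overlap in Kif15, in Kif14 and in most genes of the other classes.

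**Figure D1:**
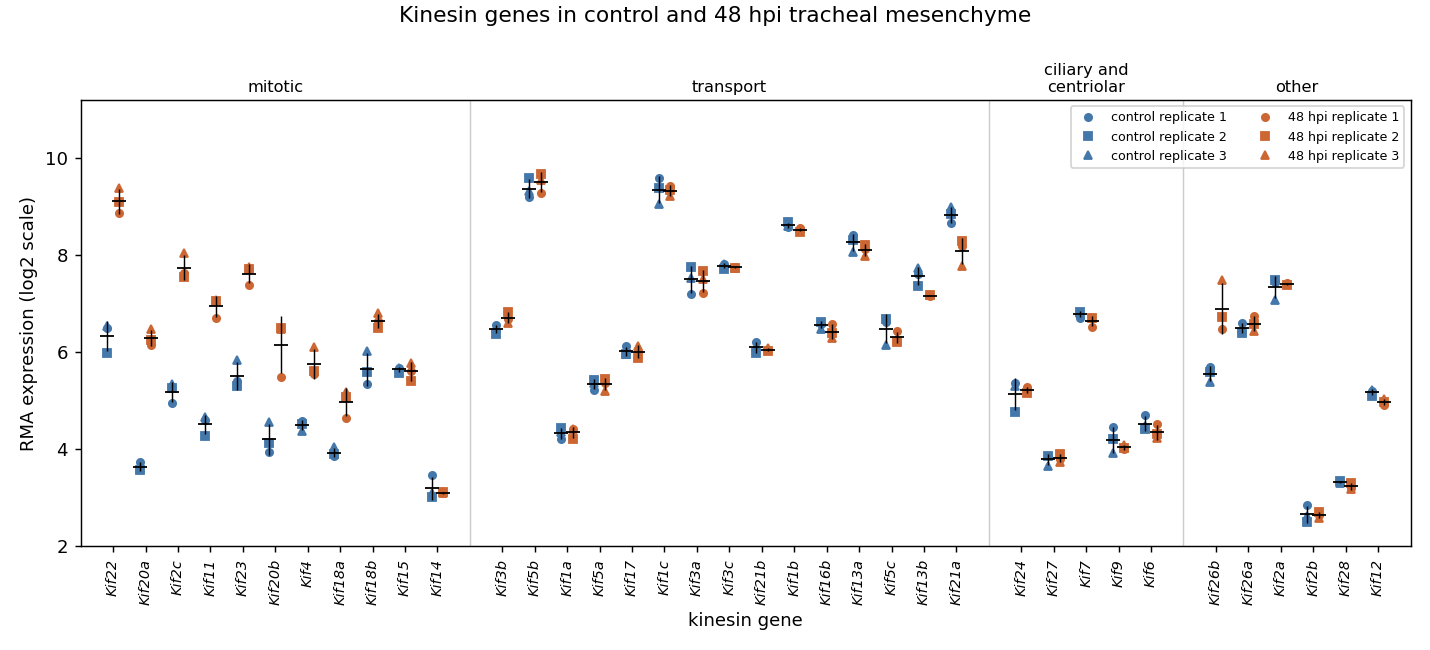
RMA expression (log2 scale) of the 37 kinesin genes in each of the 3 control (blue) and 3 48 hpi (orange) samples, with marker shape giving the replicate number, and black bars giving the group mean and SD. The 48 hpi values of 9 mitotic kinesins all lie above their controls, while Kif15, Kif14 and most genes of the other classes overlap.

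Among the mitotic kinesins, the probe sets used for the spindle motors were divided. Kif11, whose tetramer slides antiparallel microtubules and pushes the spindle poles apart, measured 4.60, 4.28 and 4.66 in control replicates 1 to 3 and 6.70, 7.05 and 7.08 in 48 hpi replicates 1 to 3. The lowest injured sample thus lay about 2 log2 units above the highest control. Its log2 fold change was 2.43 ± 0.15 (SE), a 5.40-fold rise, with an adjusted p of 0.000493. Kif15, which can keep a spindle bipolar in place of Kif11, measured 5.68, 5.58 and 5.67 in the controls and 5.62, 5.41 and 5.79 at 48 hpi. Its groups overlapped, and the 95% interval of its log2 change, -0.31 to 0.22, held no rise of more than 1.17-fold. The array held 1 probe set for Kif15, so the interval bounds that set and not the gene. Kif11 and Kif2c rose, and each also had a set that hardly changed (0.17 and 0.01).

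All 5 mitotic kinesins that were sorted as moving chromosomes or acting on the ends of microtubules rose. Kif2a and Kif2b, which also take microtubules apart, were sorted with the other kinesins. Neither was called (log2 changes of 0.07 and -0.01), so the counts by class depend on this sorting. Kif22, a chromokinesin that binds DNA and pushes chromosome arms toward the spindle equator, had the largest change when each gene was represented by its brightest probe set. With the mean of all its probe sets the change was 1.89, below the 2.65 of Kif20a, which has a single set. It measured 6.50, 5.98 and 6.54 in the controls and 8.86, 9.10 and 9.38 at 48 hpi, a rise of 2.78 ± 0.19 on the log2 scale or 6.85-fold (adjusted p = 0.000705). Kif2c, which takes microtubules apart at kinetochores and so corrects faulty attachments, went from 4.95, 5.25 and 5.34 to 7.64, 7.55 and 8.04 (log2 fold change 2.57 ± 0.16, adjusted p = 0.000568). For both genes the groups were separated by several times their own spread.

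The other members of this group changed less. Kif4, a chromokinesin that also works with Prc1 on the microtubules of the central spindle, measured 4.59, 4.53 and 4.39 in the controls and 5.55, 5.61 and 6.11 at 48 hpi (1.26 ± 0.16, adjusted p = 0.00825). The kinesin-8 motors shorten or cap microtubules. Kif18a, which damps the swings of chromosomes at the metaphase plate, went from 3.85, 3.89 and 4.04 to 4.65, 5.08 and 5.18 (1.04 ± 0.15, adjusted p = 0.0131). Kif18b, which acts on astral microtubules, went from 5.35, 5.59 and 6.02 to 6.64, 6.51 and 6.80 (1.00 ± 0.17, adjusted p = 0.0267). Its groups were the closest of the 9 that rose, with a gap of 0.49 between the highest control and the lowest injured sample.

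Of the 4 kinesins of cytokinesis, 3 rose. Kif20a, which brings the chromosomal passenger complex to the central spindle, measured 3.74, 3.56 and 3.61 in the controls and 6.15, 6.26 and 6.47 at 48 hpi. Its gap of 2.40 between the groups was the widest and its adjusted p of 0.000131 the lowest of all kinesins, with a log2 fold change of 2.65 ± 0.11. Kif23, which forms the centralspindlin complex with Racgap1, rose from 5.40, 5.29 and 5.83 to 7.39, 7.72 and 7.76 (2.11 ± 0.17, adjusted p = 0.0012). Kif20b, which acts late in cytokinesis, rose from 3.93, 4.13 and 4.55 to 5.48, 6.50 and 6.48 (1.95 ± 0.29, adjusted p = 0.016), with 48 hpi replicate 1 a full log2 unit below the other 2. Kif14, which works with citron kinase and Prc1 at the midbody, measured 3.47, 3.01 and 3.10 in the controls and 3.10, 3.13 and 3.09 at 48 hpi. Both group means lay below 3.91, the bottom quartile of all values, so the array gave little signal for Kif14 in either group.

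The injured samples kept an order within the mitotic class. Of the 9 genes that rose, 48 hpi replicate 3 was the highest injured sample in 8 and replicate 1 the lowest in 7, and control replicate 3 was the highest control in 7. The mean over all 11 mitotic kinesins was 4.73, 4.65 and 4.89 in the controls and 6.16, 6.36 and 6.56 at 48 hpi. Calls of 6 of the 9, namely Kif22, Kif20a, Kif2c, Kif11, Kif23 and Kif4, held in all 6 fits that left out 1 sample. Kif20b kept its call in 3 of these fits, Kif18a in 4 and Kif18b in 1, and each had its highest adjusted p (0.0766, 0.0582 and 0.118) without 48 hpi replicate 3. Without control replicate 2 only 6 kinesin genes in all were called as rising, and without both samples numbered 1 there were 9, of which 8 were mitotic.

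**Figure D2:**
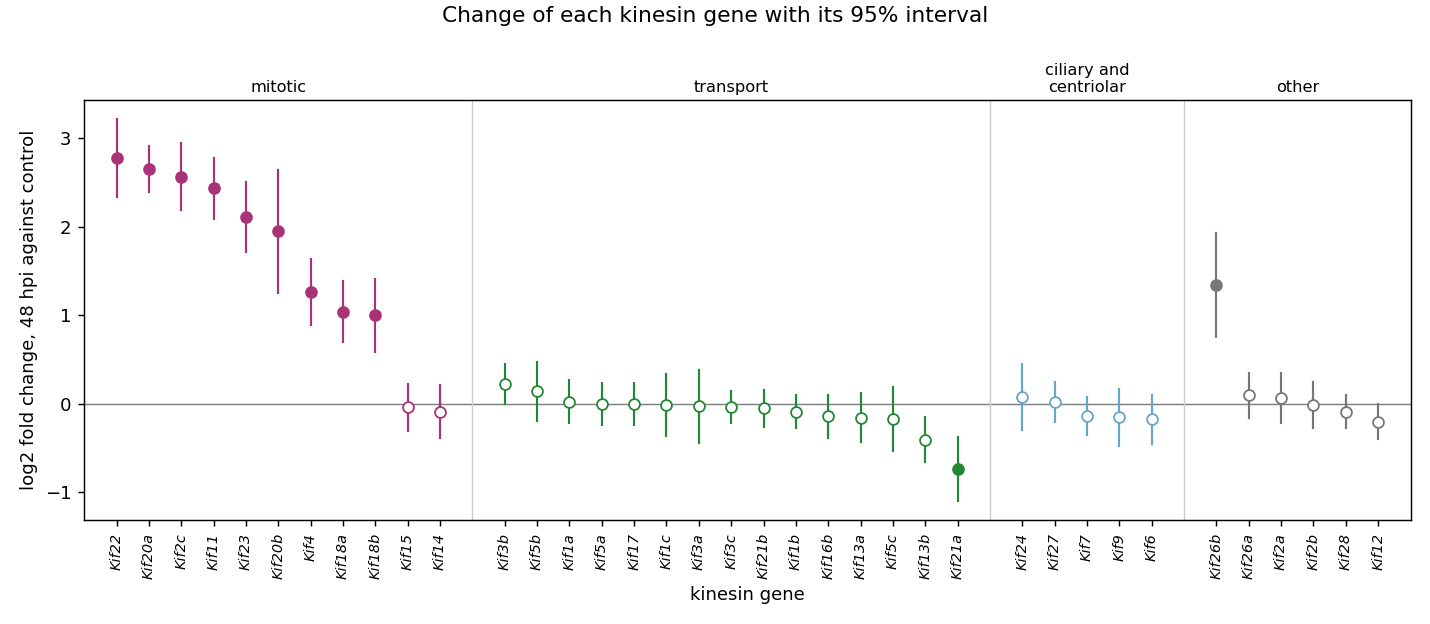
Log2 fold change at 48 hpi against control for each kinesin gene (points) with its 95% interval from limma (lines), filled where the adjusted p is below 0.05. The intervals of 9 mitotic kinesins and of Kif26b lie wholly above 0. Wholly below 0 lie those of Kif21a (-1.10 to -0.38), Kif13b (-0.66 to -0.15) and Kif12 (-0.40 to -0.0036), of which Kif21a alone is filled.

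Probe sets of one gene did not always move together. The 11 mitotic kinesins had 24 probe sets, of which 14 rose, none fell and 20 had a change above 0. For Kif22, the set used here rose by 2.78, another rose by 2.05 and the remaining one changed by 0.86 (adjusted p = 0.0781). For Kif2c, the set used rose by 2.57 and another by 0.67, whereas the other two changed by 0.01 and -0.03. The sets used for both genes carry the mark by which Affymetrix warns that some of their probes may also match other sequences. Kif11 (2.43, 1.53 and 0.17), Kif23 (2.11, 0.48 and 0.12), Kif20b (1.95, 1.30, 0.21 and -0.04) and Kif18a (1.04 and 0.11) each had at least 1 set that did not pass the test. With the mean of all probe sets of a gene, all 9 were still called and the median of the class was 0.90 in place of 1.95. The size of these changes thus depended on the probe set.

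**Figure D3:**
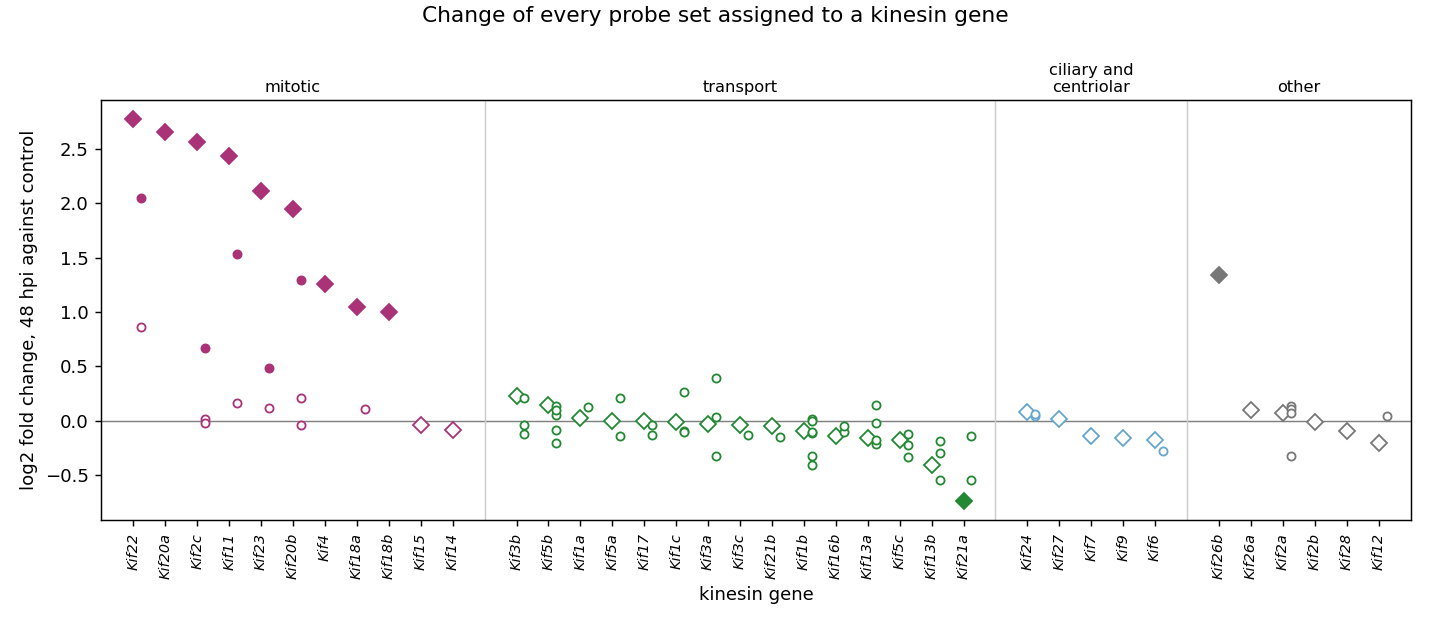
Log2 fold change at 48 hpi against control of every probe set assigned to 1 kinesin gene, with diamonds for the set that represents the gene and circles for its other sets, filled where the adjusted p is below 0.05. Filled symbols stand at 14 of 24 mitotic probe sets, all above 0, and at 1 of 56 transport probe sets, below 0.

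The promoters of the family are shown because genes of late mitosis often carry a pair of elements just before their start. These are the CHR (cell cycle genes homology region), at which MuvB complexes bind, and the CCAAT box, which binds NF-Y. Promoter sequences of RefSeq (build GRCm38.p6) were found for 31 of the 37 kinesin genes, in 35 windows of 250 bases before a transcript start. None was found for the mitotic Kif20a, which rose, or for Kif5b, Kif5a, Kif21b, Kif13b and Kif28. The CHR was searched as TTTGAA or TTCGAA and the CCAAT box as CCAAT, both on either strand, and no match of one overlapped a match of the other in these windows. The CHR letters were in 5 of 10 mitotic windows, in 1 of 13 transport windows, in 2 of 6 windows of the kinesins of cilia and centrioles, in 1 of 6 of the others and in 17.1% of all 32851 mouse windows. CCAAT was in 6 of the 10, in 4 of the 13, in 3 and 2 of the 6 and in 33.8% of all. Both were in 3 of the 10 mitotic windows (Kif22, Kif11 and Kif14), in none of the transport windows, in 2 of the 6 ciliary and centriolar windows (Kif24 and Kif27), in 1 of the 6 others (Kif26b) and in 6.02% of all. Of the mitotic kinesins that rose, 3 of 8 windows held the CHR letters, 5 held CCAAT and 2 held both. In these windows the pair was thus neither present in most of the genes that rose nor limited to the mitotic class. In 25 of the 35 windows at least 1 base lay inside the annotated gene. All 250 bases did so in the windows of Kif2c, Kif14 and Kif27, among others. Their matches are in the counts above, although such windows may not be promoters. The following 5 were taken from the 10 windows with no base inside the gene. Capitals mark the matches, and each sequence runs 5′ to 3′ up to the base before the start, on the plus strand. Kif11 (chr19:37376132-37376381) and Kif4 (chrX:100625815-100626064) rose, Kif15 (chr9:122950831-122951080) is mitotic and was not called, Kif26b (chr1:178528875-178529124) rose outside the mitotic class, and Kif3c (chr12:3364882-3365131) is a transport kinesin.
Kif11: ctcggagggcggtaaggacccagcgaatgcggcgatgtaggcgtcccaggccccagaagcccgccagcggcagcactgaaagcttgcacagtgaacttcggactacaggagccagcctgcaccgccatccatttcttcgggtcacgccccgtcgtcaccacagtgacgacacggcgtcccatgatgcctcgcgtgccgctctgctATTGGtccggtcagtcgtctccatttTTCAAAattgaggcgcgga
Kif4: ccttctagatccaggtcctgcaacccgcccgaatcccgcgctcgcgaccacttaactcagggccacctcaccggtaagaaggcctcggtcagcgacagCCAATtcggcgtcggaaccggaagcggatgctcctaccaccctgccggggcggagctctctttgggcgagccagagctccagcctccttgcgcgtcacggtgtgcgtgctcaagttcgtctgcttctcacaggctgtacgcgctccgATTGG
Kif15: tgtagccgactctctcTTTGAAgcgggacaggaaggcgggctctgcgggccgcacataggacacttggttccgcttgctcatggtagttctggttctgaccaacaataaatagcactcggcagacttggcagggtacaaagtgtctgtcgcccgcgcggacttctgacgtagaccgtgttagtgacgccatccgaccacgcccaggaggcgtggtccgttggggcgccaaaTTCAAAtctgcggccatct
Kif26b: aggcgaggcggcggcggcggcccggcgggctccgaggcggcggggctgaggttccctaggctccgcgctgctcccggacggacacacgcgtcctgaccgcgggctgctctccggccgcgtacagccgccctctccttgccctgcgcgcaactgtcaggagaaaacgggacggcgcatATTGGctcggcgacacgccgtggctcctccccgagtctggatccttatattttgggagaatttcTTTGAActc
Kif3c: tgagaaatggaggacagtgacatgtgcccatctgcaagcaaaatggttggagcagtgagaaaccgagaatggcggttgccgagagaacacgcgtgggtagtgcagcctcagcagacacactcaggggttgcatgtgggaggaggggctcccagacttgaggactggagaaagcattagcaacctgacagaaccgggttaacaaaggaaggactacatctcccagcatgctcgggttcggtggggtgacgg
The CHR letters of Kif11 begin 19 bases before the start and its CCAAT letters 45 bases before it. Kif15 has CHR letters at the same distance of 19 bases and again farther upstream, with no CCAAT. Kif4 has CCAAT letters 5 bases before the start and again farther upstream, and no CHR, although it rose. In Kif26b the CHR letters begin at 9 and those of CCAAT at 73 bases, and Kif3c has neither. A match of letters is a description of the sequence, and binding was not measured.

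The transport kinesins as a class showed no rise. Of the 15 genes none rose, in limma and in each alternative fit, also at an unadjusted p below 0.05. In limma 1 fell, while 2, Kif21a and Kif13b, lay below 0 at an unadjusted p below 0.05. At that unadjusted p, 14.6% of all genes lay above 0 and 9.29% below. Their mean was 7.24, 7.28 and 7.20 in the controls and 7.15, 7.17 and 7.10 at 48 hpi, a difference of 0.10 on the log2 scale between groups that did not overlap. The 56 probe sets of these 15 genes, more than 1 for each, held no rise and 1 fall, and 42 had a change below 0. By gene, 12 of the 15 lay below 0, where 9683 of all 18193 genes did so.

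The heavy chains of conventional kinesin, which haul mitochondria, vesicles and RNA granules, were close to their control levels. Kif5b, the form found in most cell types, measured 9.19, 9.58 and 9.33 in the controls and 9.29, 9.68 and 9.56 at 48 hpi. Its 95% interval, -0.20 to 0.47, reached the highest of all uncalled kinesins outside the mitotic class and allowed a rise of up to 1.39-fold. Kif5a and Kif5c, known mainly from neurons, had log2 changes of -0.00 and -0.18, and neither passed the test (adjusted p = 0.99 and 0.584).

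The kinesin-2 motors carry cargo in the cytoplasm and drive transport toward the tip of the cilium. Kif3a measured 7.20, 7.77 and 7.53 in the controls and 7.22, 7.68 and 7.51 at 48 hpi, with samples of the same number close to each other (log2 change -0.03 ± 0.17). Its partner Kif3b measured 6.56, 6.38 and 6.50 and then 6.69, 6.83 and 6.60, so that all injured samples lay just above the controls (0.23 ± 0.10, adjusted p = 0.267). Kif3c changed by -0.04 and Kif17, a homodimeric motor of the same family, by -0.01. The 4 probe sets of Kif3a ranged from -0.32 to 0.39, and none passed the test.

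The kinesin-3 motors carry vesicles, endosomes and mitochondria. Kif1a, Kif1c, Kif1b, Kif16b and Kif13a changed by 0.02, -0.02, -0.09, -0.14 and -0.16 on the log2 scale, with adjusted p from 0.512 to 0.97. Kif13b, which moves vesicles and scaffold proteins toward the cell edge, measured 7.62, 7.37 and 7.73 in the controls and 7.15, 7.17 and 7.17 at 48 hpi. All its injured samples lay below the controls, yet the change of -0.41 ± 0.11 did not pass the test (adjusted p = 0.0937). With the replicate number as a block its adjusted p was 0.0489, and the count of kinesins that fell went from 1 to 2, with 10 that rose. In that fit 8.77% of all genes rose and 4.64% fell.

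Kif21a was the 1 kinesin that fell. It was listed with the transport kinesins, and it is known for holding back the growth of microtubules at the cell cortex. It measured 8.66, 8.84 and 8.98 in the controls and 8.18, 8.30 and 7.78 at 48 hpi. The groups did not overlap, and the log2 change was -0.74 ± 0.15, a 1.67-fold fall, with an adjusted p of 0.0445. A second probe set changed by -0.55 (adjusted p = 0.0725) and the remaining one, which was dim, by -0.14. The call was lost in each of the 6 fits that left out 1 sample, with adjusted p from 0.0565 to 0.144, the highest without control replicate 3. Its paralog Kif21b measured 6.20, 5.99 and 6.11 and then 6.04, 6.02 and 6.09 (-0.05 ± 0.09).

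The kinesins of cilia and centrioles did not pass the test in either direction, in limma, in each alternative fit or at an unadjusted p below 0.05. The filter on dim probe sets left out 4 of these 5, all but Kif7, so that fit could not call them. Kif7, which regulates Hedgehog signaling at the tip of the primary cilium, measured 6.71, 6.83 and 6.81 in the controls and 6.51, 6.71 and 6.70 at 48 hpi (-0.14 ± 0.09, adjusted p = 0.456). Kif24, which holds back the outgrowth of a cilium from the mother centriole, changed by 0.08, with a 95% interval from -0.30 to 0.45. Kif27, a paralog of Kif7, changed by 0.02. Kif9 and Kif6, known from motile cilia, changed by -0.16 and -0.18. Kif27 lay below the bottom quartile of all values in both groups, and Kif9 and Kif6 were dim as well, at 3.92 to 4.70 in all samples.

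Of the remaining 6 kinesins, Kif26b rose. It belongs to a branch of the family without ATP-driven movement and is known from Wnt5a-Ror signaling and from the mesenchyme of the developing kidney. It measured 5.70, 5.59 and 5.38 in the controls and 6.48, 6.73 and 7.49 at 48 hpi. The groups did not overlap, and the log2 fold change was 1.34 ± 0.25, or 2.53-fold, with an adjusted p of 0.0321. The array held 1 probe set for it, and its call held in 2 of the 6 fits that left out 1 sample, with adjusted p from 0.0301 to 0.115, the highest without control replicate 3. Its closest relative Kif26a measured 6.61, 6.40 and 6.48 and then 6.75, 6.58 and 6.44 (0.09 ± 0.11). The microtubule depolymerases Kif2a and Kif2b changed by 0.07 and -0.01, and Kif28 by -0.09, with Kif2b and Kif28 below the bottom quartile in both groups. Kif12 measured 5.21, 5.10 and 5.23 and then 4.91, 4.98 and 5.04 (-0.20, adjusted p = 0.255).

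Over the whole family, all 3 injured values lay above all 3 controls in 11 genes, the 10 that rose and Kif3b, where 17.2% of all genes did so. They lay below in 4, namely Kif21a, Kif13b, Kif1b and Kif12, where 13.1% of all genes did so. The first count was made up almost wholly of the mitotic class, with 9 of its 11 genes. Among the 26 kinesins outside that class 2 lay above and 4 below.

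Some motor genes have symbols that do not fall under the rule. Cenpe, the kinesin that carries chromosomes along the spindle from their kinetochores, rose from 4.26, 4.07 and 4.09 to 5.87, 6.31 and 6.27 (2.01 ± 0.14, adjusted p = 0.000705). Kifc1, a minus-end motor that draws spindle poles together, rose from 4.72, 4.83 and 4.94 to 5.82, 5.65 and 5.83 (0.94 ± 0.10, adjusted p = 0.00374). Of Kifap3, the subunit that links kinesin-2 to its cargo, and Kifc2, Kifc3 and Kifc5b, none passed the test, with changes from -0.36 to 0.06 (1 of the 4 below 0 at an unadjusted p below 0.05).

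The partners of the mitotic kinesins rose with them. Of 19 measured genes of the chromosomal passenger complex, the spindle checkpoint, the central spindle and the mitotic kinases, 18 rose, and the median change was 2.23 on the log2 scale. Birc5 (survivin), the passenger subunit that Kif20a helps to place, rose from 3.94, 4.60 and 5.15 to 8.72, 8.75 and 9.04 (4.27 ± 0.28, adjusted p = 0.00064). Cdk1, the kinase that drives entry into mitosis, rose from 5.02, 5.51 and 5.16 to 8.70, 8.74 and 8.71 (3.48 ± 0.13, adjusted p = 0.000131). Cit, the citron kinase with which Kif14 works, measured 6.94, 6.91 and 6.96 and then 6.58, 6.88 and 6.92 (-0.14 ± 0.11, adjusted p = 0.524). It was the one exception among the partners.

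General markers of cycling cells rose as well. Mki67, found in cells outside the resting state, rose by 3.53 ± 0.34 (adjusted p = 0.0027), and Top2a, which untangles DNA before mitosis, by 2.92 ± 0.18 (adjusted p = 0.000569). Mki67 measured 5.19, 5.85 and 6.18 in the controls and 8.61, 9.50 and 9.71 at 48 hpi. As in the mitotic kinesins, replicate 3 was the highest and replicate 1 the lowest of the injured samples.

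No rise was called among the partners of the transport kinesins. Of 14 light chains and cargo adaptors none rose, also at an unadjusted p below 0.05 and with the replicate block, and 1 fell, with a median of -0.05. With the replicate block 2 fell, the second being Klc3, a light chain (-0.41, adjusted p = 0.0482 with the block and 0.328 without). The gene that fell was Clstn1, a membrane protein that binds kinesin light chains, at 9.30, 9.11 and 9.34 and then 8.84, 8.76 and 8.62 (-0.51 ± 0.10, adjusted p = 0.0417). Of 21 subunits of dynein and dynactin, the motor that walks the other way, 1 rose. This was Dctn3, at 9.33, 9.24 and 9.37 and then 9.84, 9.66 and 9.93 (0.50 ± 0.10, adjusted p = 0.0384). With the replicate block, Actr1a was called as well (0.34, adjusted p = 0.0459) and Dynlrb2 fell (-1.07, adjusted p = 0.0284). At an unadjusted p below 0.05 there were 5 above 0 and 2 below. Of all genes 4.97% rose and 1.24% fell in limma, and 8.77% rose and 4.64% fell with the block. The called genes among the adaptors and among dynein and dynactin are too few to be read against these shares. Of 18 genes of intraflagellar transport, the cargo trains that kinesin-2 pulls, none passed the test in limma or with the replicate block, and at an unadjusted p below 0.05 there were 1 above 0 and 5 below, where all genes gave 14.6% and 9.29%. The median of this list was -0.15, with 7 genes above 0 and 11 below. All injured values lay above the controls in 1 gene and below them in 7, where 17.2% and 13.1% of all genes did so. Ift27 and Ift20, named for the brightness of their probe sets, changed by 0.30 and 0.14, against the lean of the list. In the plot of list means, the lines of the mitotic kinesins and their partners climb in every sample pair, and those of the transport kinesins and their adaptors stay nearly level.

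**Figure D4:**
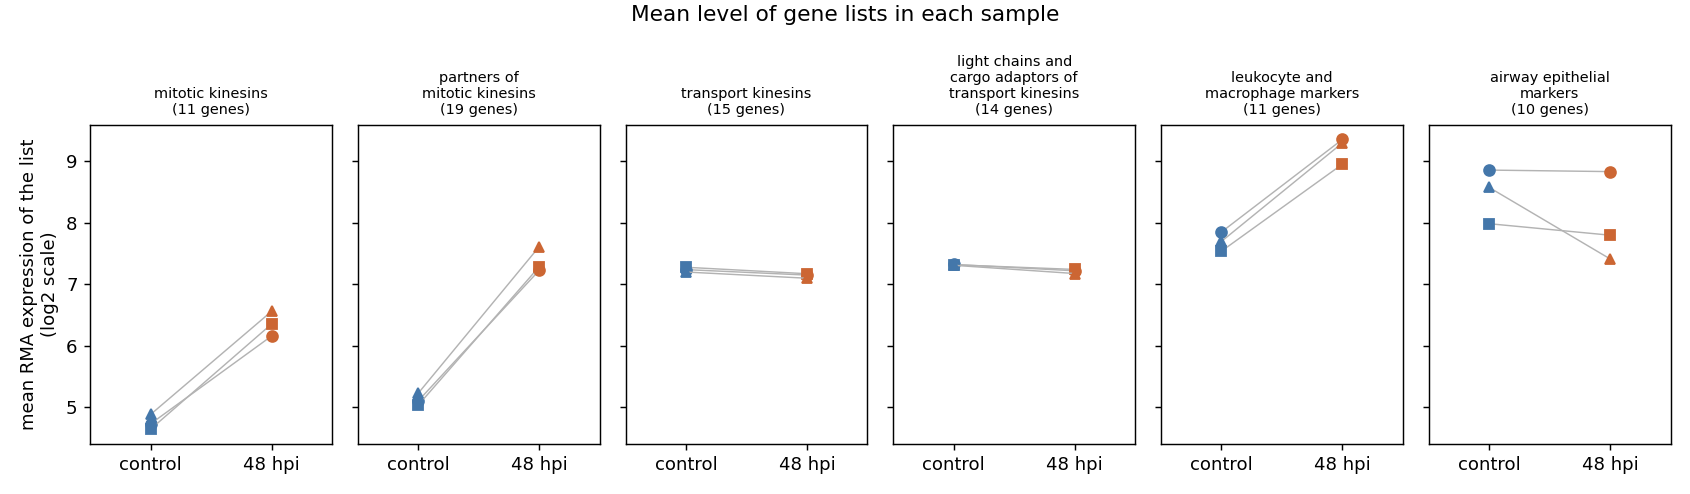
Mean RMA expression (log2 scale) of 6 gene lists in each control (blue) and 48 hpi (orange) sample, with grey lines joining samples of the same replicate number (circle 1, square 2, triangle 3). The mitotic kinesins, their partners and the leukocyte markers are higher in all 3 injured samples, the transport kinesins and their adaptors differ by about 0.10, and the epithelial markers are spread widely in both groups.

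Markers of other cells moved in the same samples. Of 11 leukocyte and macrophage markers 9 rose, with Itgam at 2.88 ± 0.17 and Msr1 at 2.45 ± 0.34, and the mean of the list was 7.54 to 7.85 in the controls and 8.96 to 9.36 at 48 hpi. Of 9 endothelial markers 3 rose, Cdh5 and Tie1 the most, by 0.71 and 0.65, from a mean of 7.11 to 7.39 to one of 7.51 to 7.76. Of 9 cartilage markers 2 fell, Chad by 0.74 and Hapln1 by 0.68, of 8 fibroblast markers 1, Dpt by 0.53, and of 8 markers of neurons and Schwann cells 1, S100b by 0.57. All 9 cartilage markers had changes below 0, and with the replicate block 6 of them fell. The block also added a rise of Cd163, of the endothelial Pecam1, of the fibroblast gene Col1a1 (0.51, adjusted p = 0.0221) and of the neuronal Stmn2 (0.65, adjusted p = 0.0264). No marker is listed at 0 in RMA values, and the part of these cells in the rise of the mitotic kinesins was not tested.

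No change passed the test among 10 airway epithelial, 12 motile cilia and 8 smooth muscle markers. At an unadjusted p below 0.05, 2 epithelial, 2 motile cilia and no smooth muscle genes lay below 0, against 9.29% of all genes, and with the replicate block 2, 1 and none of them fell. The epithelial list measured 8.86, 7.99 and 8.58 in control replicates 1 to 3 and 8.84, 7.80 and 7.42 in 48 hpi replicates 1 to 3. The injured samples were in the reverse order of the mitotic kinesins. The controls were not, as control replicate 2 was the lowest control for both lists. Scgb1a1, the lowest change of the list, went from 13.46, 12.69 and 12.50 to 12.31, 9.90 and 8.72 (-2.57 ± 0.82, adjusted p = 0.146). Of the 10 epithelial markers 5 had changes above 0 and 5 below, with Krt14 the highest at 0.41. The basal cell genes Krt5 and Trp63 changed by 0.18 and -0.33. Of the genes with the brightest probe sets, the motile cilia markers Rsph1 and Dnaic1 changed by 0.14 and -0.22, and the smooth muscle markers Acta2 and Tagln by 0.17 and 0.37. The part of epithelial RNA in the kinesin values was not tested.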

How the data were processed

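Amplified RNA of each sample was hybridized by the authors to 1 Affymetrix mouse genome array. The deposited values are log2 expression per probe set after RMA, as the authors computed them. Software named in the submitters' processing notes was Partek 6.5 and Affymetrix Expression Console 1.1. RMA sets all arrays to the same overall brightness and compresses the folds of dim genes. Of 45101 probe sets, 64 controls were left out and 45037 tested. The platform annotation gave 1 symbol to 34945, several to 932 and none to 9160. Of 18193 genes, 9010 had more than 1 probe set. A probe set shared by Kif27 and another gene was left out.

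Groups were compared with limma 3.58.1 in R 4.3.3 (lmFit with group as its factor, eBayes, two-sided, with Benjamini-Hochberg adjustment over the 45037 probe sets), after a check on simulated data. Residual degrees of freedom were 4, plus 3.21 from the shared spread. Errors of log2 changes are SE. The number of arrays limits the precision. Every kinesin gene was named. From each other list Mki67, Top2a, Cenpe and Kifc1 were named, with at most 2 called rises and 2 called falls of each, or else the 2 members with the brightest probe sets. Cit, Kifc2, Kifc5b, Klc3, Actr1a, Dynlrb2, Cd163, Pecam1, Col1a1, Stmn2, Krt14, Krt5 and Trp63 were named after their values were seen. The kinesins, their classes and all lists were chosen with earlier results of these data known.

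The labels number the replicates alike in both groups. With the group means removed, samples of the same number correlated at 0.62, 0.36 and 0.34 over probe sets, and each correlated best with its own number. Over the probe sets of the 37 kinesins alone these values were 0.37, 0.05 and 0.24. There 48 hpi replicate 2 correlated better with control replicate 3 (0.24) than with control replicate 2. This pairing comes from the data, not from the labels. Alternatives were the replicate block, leaving out each sample or both numbered 1, a filter on dim probe sets, the mean of all probe sets of a gene, an ordinary linear model and an intensity trend.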

Additional observations from a re-analysis of the deposited data

How the results depend on the processing

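Of 433 values of single kinesins under the 12 alternatives, 370 kept their direction and their side of the threshold, 32 lost and 1 gained the call, and 30 changed sign. The sign changed in 12 genes, none of them called, and by no more than 0.11 from 0. With the replicate block, 2 kinesins fell, both of them transport kinesins, in place of 1, and no other call of a kinesin changed. The ordinary linear model, which shares no spread between genes and called 41 rises and 4 falls among all genes, kept 1 kinesin that rose, 1 mitotic kinesin among them, 0 other kinesins that rose and 0 that fell. Leaving out 1 sample gave 6 to 9 kinesins that rose, 0 to 0 that fell (transport kinesins 0 to 0) and 0 to 1 other kinesins that rose. Without both samples numbered 1, 0 kinesins fell, the transport kinesins included. The median of the mitotic kinesins was 2.15 without both samples numbered 1, 2.11 with dim probe sets left out, which tested 26 of the 37 kinesins, 0.90 with the mean of all probe sets, and 1.78 to 2.23 without 1 sample. The causes were not tested. Signs turned without both samples numbered 1 for Kif14 (0.054), Kif1a (-0.068), Kif17 (0.041), Kif1c (0.059), Kif21b (0.0023) and Kif2b (0.084), and with the mean of all probe sets for Kif5a (0.021), Kif1c (0.0086) and Kif3a (0.018). Without 1 sample the log2 changes spanned -0.13 to 0.058 for Kif15, -0.18 to 0.048 for Kif14, -0.039 to 0.090 for Kif1a, -0.060 to 0.063 for Kif5a, -0.063 to 0.061 for Kif17, -0.16 to 0.11 for Kif1c, -0.18 to 0.10 for Kif3a, -0.11 to 0.19 for Kif24, -0.050 to 0.056 for Kif27, -0.062 to 0.14 for Kif2a and -0.090 to 0.085 for Kif2b. Dim signal limits Kif14, Kif27, Kif2b and Kif28, whose means lay below the bottom quartile of all values in both groups, and the fold changes of 6 of the 10 genes that rose start from a control mean below the median of all values, 5.35.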
